A study of Mus musculus with 1699 samples.

Results

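Lmx1a, Lmx1b, Foxa1, Foxa2, Nr4a2, En1 and En2 are the transcription factors that mark the midbrain dopamine lineage, and they were followed here in single sorted neurons by stage and genotype. These 7 genes were taken by name from 39468 gene entries, of which 31526 had a read in any cell. A factor was counted as expressed in a cell when its level was over 10 RPKM, a read count scaled to the length of the gene model and to the depth of the cell. Combinations were counted in the same way within each cell.

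Midbrain dopamine (mDA) neurons arise from the floor plate of the ventral midbrain. Lmx1a and Lmx1b, a pair of LIM-homeodomain factors, and Foxa1 and Foxa2, a pair of forkhead factors, specify the progenitors and remain in their neuronal progeny. Nr4a2, also known as Nurr1, is an orphan nuclear receptor that switches on dopamine synthesis genes such as Th as the neurons become postmitotic, and the Engrailed homeodomain factors En1 and En2 are known for patterning the midbrain and for the survival of these neurons.

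The cells came from mice that carry eGFP in the Pitx3 locus (allele Pitx3tm1Mli), a knock-in reporter that replaces Pitx3 function on the targeted allele. Ventral midbrain was dissociated, GFP-positive cells were sorted by FACS, and each cell was sequenced as its own library with the Smart-seq2 protocol. Heterozygotes (Pitx3eGFP/wt), which keep 1 working Pitx3 allele, were sampled at embryonic days E13.5, E15.5 and E18.5 and at postnatal days P1, P7 and P90, the last being adult mice. Homozygotes (Pitx3eGFP/eGFP), which lack working Pitx3, were sampled at E13.5 and P1. Wild-type cells without the reporter were not analysed here: every group carries at least 1 targeted allele. The cells were sorted for GFP, but the sort did not keep out every other cell type. Oligodendrocyte-like cells were among those sequenced, and most of them did not have eGFP over 10 RPKM. The study states that all cells it analysed expressed eGFP by FACS when sampled, and ascribes this to stable protein where mRNA was low. Reporter protein in single cells was not tested here. Methods differed with stage: a neural tissue kit was used for embryos, a postnatal neuron kit at P1 and P7, and papain at P90.

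The labels name no animal, and the methods of the study do not tie cells to the animals used, so each stage and genotype is treated as 1 sample. Intervals in the text are 95% and cover the counting of cells only (exact Clopper-Pearson for a share, Newcombe for a difference of shares). No test between groups could be made, and a difference whose interval leaves out 0 says only that it is larger than the error of counting cells.

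Of 1699 cells, 1495 were kept, with at least 92 (P7) in each of the 8 groups. Median reads per kept cell ran from 753256 in the homozygous E13.5 group to 2357900 in the heterozygous E13.5 group. The targeted gene followed the labels: the mean level of Pitx3 was 416 RPKM in heterozygous and 18.8 RPKM in homozygous cells at E13.5, and 104.7 and 8.35 RPKM at P1. The neuronal markers Tubb3, Snap25, Stmn2, Syt1 and Elavl4 had reads in all 8 groups. The dopamine marker Th was over 10 RPKM in 68.6% of heterozygous E13.5 cells and 69.8% of P90 cells, so not every sorted cell carried the defining marker of a dopamine neuron. Cells grouped by oligodendrocyte genes were left out. Of the cells that were kept, 25 of 92 at P7, 20 heterozygous and 20 homozygous cells at P1 and 9 at E18.5 still had at least 3 markers of a single glial, microglial or vascular list, against 0 or 1 in each other group. External spike-in RNA had been added to the E18.5, P90 and all homozygous cells and to 94 heterozygous P1 cells, and to no other cell.

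Lmx1a and Lmx1b, Foxa1 and Foxa2, and En1 and En2 are paralogues, and reads of a shared stretch could fall to either gene of a pair. The longest run of bases that the coding sequences share is printed here in capitals for the Lmx1 and Engrailed pairs, with 12 bases on each side, from the transcripts of GENCODE release M21 (GRCm38, the same assembly as mm10), because it sets how well a pair can be told apart. Lmx1a (ENSMUSG00000026686) lies at chr1:167689237-167848741 on the plus strand and Lmx1b (ENSMUSG00000038765) at chr2:33560965-33640511 on the minus strand. Foxa1 (ENSMUSG00000035451) lies at chr12:57540628-57546916 and Foxa2 (ENSMUSG00000037025) at chr2:148042877-148046969, both on the minus strand. En1 (ENSMUSG00000058665) lies at chr1:120602418-120607992 and En2 (ENSMUSG00000039095) at chr5:28165694-28172166, both on the plus strand. Nr4a2 (ENSMUSG00000026826) lies at chr2:57106830-57124003 on the minus strand.
Lmx1a: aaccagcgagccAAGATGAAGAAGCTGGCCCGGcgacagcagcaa
Lmx1b: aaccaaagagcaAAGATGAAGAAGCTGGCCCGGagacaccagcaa
En1: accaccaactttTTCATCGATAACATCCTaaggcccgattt
En2: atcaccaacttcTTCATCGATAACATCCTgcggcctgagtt

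The shared runs were 21 bases for the Lmx1 pair and 17 for the Engrailed pair, and a longer run of 38 bases was shared by the Foxa pair, all shorter than the 43-base reads. No 43-base stretch of the exons of any of the 7 genes occurred in the exons of another of them. At most 0.448% of such stretches (Lmx1a) occurred in any other annotated gene, so the values of the pairs are reads that the annotation tells apart. A level of 10 RPKM stood for a median of 27.1 reads for Foxa2, the shortest gene model of the 7, and 68.6 reads for En2.

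Across the 6 heterozygous stages, 6 of the 7 factors were found over 10 RPKM in fewer cells at P90 than at E13.5, beyond counting error. The same count over all entries was not made, and adult cells were kept from 3.4% of genes detected, E13.5 cells from 15%. Nr4a2 stayed in nearly all cells at both ages (98.6% at E13.5 and 94.8% at P90). By mean level all 7 were at least 2-fold lower in CPM, the counts scaled to the total of each cell, at P90, with a range from −1.66 (En1) to −3.44 (En2) on the log2 scale. Of the 10336 entries tested, 24.3% were at least 2-fold lower in that comparison and 20.3% higher, and the median of all entries was −0.17 against −2.41 for the 7 factors. From E13.5 to E18.5, 5 of the 7 (all except Foxa1 and En1) were at least 2-fold lower and none higher, where 8.31% of entries were lower and 13.6% higher. The heterozygous E13.5 cells had no spike-in RNA and the E18.5 and P90 cells did. Stage and spike-in therefore cannot be told apart in these comparisons.

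**Figure D1:**
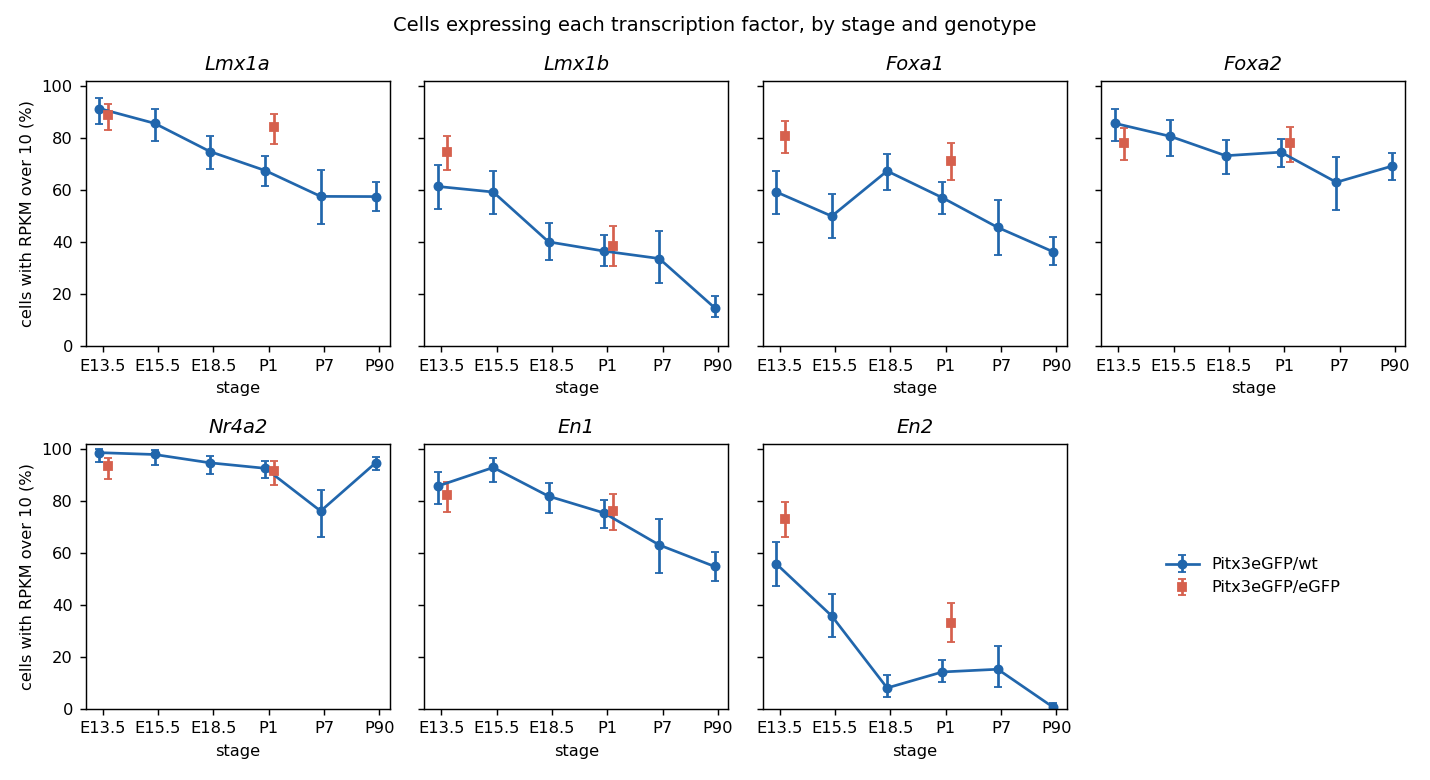
Share of kept cells (%, vertical axis) with an RPKM over 10 for each factor, by stage (horizontal axis, not to scale in time). Circles joined by lines are Pitx3eGFP/wt, squares are Pitx3eGFP/eGFP, and bars are exact 95% intervals for the counting of cells. En2 has the lowest share of the 7 at E18.5 (8.02%) and P90 (0.615%), while Nr4a2 stays above 90% at every stage except P7 (76.1%).

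Lmx1a, which drives the floor plate program, was expressed in 91.4%, 85.7%, 74.9%, 67.5%, 57.6% and 57.5% of heterozygous cells from E13.5 to P90. The difference between P90 and E13.5 was −33.9 percentage points (interval −40.4 to −26.1). The level of single cells at E13.5 ran from 0 through a median of 135.3 to 582 RPKM, and at P90 from 0 through 17.1 to 205.7 RPKM. The cells of the E13.5 and P90 groups thus overlapped widely, but the median was lower at P90, and cells over 150 RPKM made up 43.6% at E13.5 and 0.923% at P90.

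Lmx1b, its paralogue, was lower at every age. It was over 10 RPKM in 61.4%, 59.3%, 40.1%, 36.6%, 33.7% and 14.8% of the heterozygous cells in the same order, and the P90 share was lower than the E13.5 share by a difference of −46.7 points (−55.1 to −37.4). The mean level was 30.2 RPKM at E13.5 and 4.85 RPKM at P90. The largest step between neighbouring stages lay between E15.5 and E18.5, at −19.2 points (−29.5 to −8.23), followed by P7 to P90 at −18.9 points (−29.6 to −9.12). These steps do not differ beyond their intervals. Both led from cells without spike-in RNA to cells with it. Among heterozygous P1 cells the Lmx1b share was 29.9% without and 48.9% with spike-in RNA, and its part in the steps was not tested.

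Cells with both genes of the pair were fewer at P90, as were cells with Lmx1b at all (61.4% at E13.5 and 14.8% at P90). A parting of the pair beyond the lower share of Lmx1b was not tested. Cells that expressed Lmx1a and Lmx1b together made up 59.3% at E13.5 (83 of 140) and 7.08% at P90 (23 cells). Cells with Lmx1a but not Lmx1b were 32.1% and 50.5% of the same groups, and 30.4% at P7. Within stages the pair was related in no constant way: at P7 Lmx1a was expressed in 80.6% of cells with Lmx1b and 45.9% of cells without it, while at P90 the shares were 47.9% and 59.2%, a difference of −11.3 points whose interval (−25.9 to 3.67) holds 0.

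Foxa1 and Foxa2 encode forkhead factors that open chromatin. The share of cells with Foxa2 was 85.7%, 80.7%, 73.3%, 74.6%, 63.04% and 69.2% from E13.5 to P90, with a median level of 131.1 RPKM at E13.5 and 29.4 RPKM at P90. Foxa1 was found in 59.3%, 50%, 67.4%, 57.1%, 45.7% and 36.3%, with medians of 21.8 and 1.92 RPKM. Foxa1 did not follow a steady course, since its share at E18.5 was 17.4 points above that at E15.5 (6.61 to 27.7), while its mean level was 48.3 and 52.5 RPKM. The E15.5 cells had no spike-in RNA and the E18.5 cells did, and the part of spike-in in that step was not tested.

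At P90 most cells had a Foxa factor, but fewer had both than at E13.5. Cells with Foxa1 or Foxa2 were 90.7% at E13.5 and 79.7% at P90, and cells with both were 54.3% (76 of 140) and 25.8% (84 cells), a difference of −28.4 points (−37.6 to −18.8). Foxa2 without Foxa1 was seen in 31.4% and 43.4%, and Foxa1 without Foxa2 in 5% and 10.5%. In P90 cells the presence of Foxa1 told little of Foxa2, which was expressed in 71.2% of cells with Foxa1 and 68.1% of cells without it (difference 3.07 points, −7.51 to 13.0).

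Nr4a2, the nuclear receptor needed for Th expression, had the highest share and the highest mean level of the 7 factors at all 6 heterozygous stages. It was over 10 RPKM in 98.6%, 97.9%, 94.7%, 92.5%, 76.1% and 94.8% of cells from E13.5 to P90. The share at P90 differed from that at E13.5 by −3.80 points with an interval that holds 0 (−6.96 to 0.314), whereas the mean level was 5.75 times higher at E13.5 (751 RPKM) than at P90 (130.5 RPKM). At P90 no cell was without a read of Nr4a2 and the single cells ran from 0.366 through a median of 116.8 to 569 RPKM.

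The P7 share of Nr4a2 was the exception, 16.5 points under P1 (interval of P7 minus P1 −26.4 to −8.00). This group was also the one with most cells that had at least 3 markers of a single other list (25 of 92). Of the markers with enough reads to compare, 7 of 8 of the oligodendrocyte lineage, 4 of 5 of astrocytes, 5 of 5 of microglia and 4 of 5 of endothelium and mural cells were at least 2-fold higher at P7 than at P1, where 4.97% of all entries were higher and 1.50% lower. None of the 7 factors passed that fold in mean level. The summed oligodendrocyte lineage markers had a median of 103.3 CPM at P7 (0 to 121641) and 49.4 at P1 (0 to 2751), and the microglial markers a median of 0 in both, with a highest cell of 28568 and 27414. Without the cells that had at least 3 markers of a single other list, 67 P7 cells remained and Nr4a2 was expressed in 85.1% of them (74.3 to 92.6), Lmx1a in 61.2% and Foxa2 in 70.1%. The same filter gave Nr4a2 in 93.95% of P1 cells (90.2 to 96.6), still above the P7 share. The P7 cells had no spike-in RNA, while part of the P1 cells did. Among all kept heterozygous P1 cells Nr4a2 was in 89.7% (84.1 to 93.8) without and 97.9% (92.5 to 99.7) with spike-in RNA. The part of spike-in in the step from P1 to P7 was not tested.

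En1, which supports the survival of mDA neurons, was over 10 RPKM in 85.7%, 92.9%, 81.8%, 75.4%, 63.04% and 54.8% of heterozygous cells from E13.5 to P90. The P90 share was lower by a difference of −30.9 points (−38.2 to −22.3) and the mean level was 56.3 RPKM at E13.5 and 19.4 RPKM at P90. Single cells ran from 0.361 through 47.95 to 213.3 RPKM at E13.5 and from 0 through 11.8 to 328.9 RPKM at P90, so the highest adult cell was above every E13.5 cell. The sampled cells also differed in makeup: cells with over 150 RPKM of the subgroup gene Nxph4, in which En1 was less frequent than in cells high for the dopamine transporter gene Slc6a3, made up 27.1% at E13.5 and 52.3% at P90, and those with over 150 RPKM of Slc6a3 17.9% and 21.8%. The study reports that neurons high for Slc6a3 were underrepresented among its sequenced cells compared with tissue. The P90 shares of all factors therefore describe the cells sampled. The part of makeup in the stage differences was not tested, and values within these cells are given further on.

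En2 was counted over 10 RPKM in 55.7%, 35.7%, 8.02%, 14.2%, 15.2% and 0.615% of the same groups, the last being 2 cells. Its median was 12.9 RPKM at E13.5, close to the threshold, and 0.503 RPKM at P90, and reads of it were still seen in all but 24% of adult cells. Both Engrailed genes passed the threshold in 50.7% of cells at E13.5 and in a single cell at P90 (0.308%), a difference of −50.4 points (−58.6 to −42.1). The correlation of En2 with eGFP across the cells of a group, given further on, was higher than that of each of the other 6 factors in all 8 groups, and the source of the En2 reads was not tested.

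The number of factors per cell went down with age. The mean number of the 7 over 10 RPKM was 5.38, 5.02, 4.40, 4.18, 3.54 and 3.28 from E13.5 to P90. Cells with at least 5 of the 7 made up 78.6% at E13.5 and 12.6% at P90. The mean and this share both count En2, which was over 10 RPKM in 55.7% of cells at E13.5 and 0.615% at P90. All 7 were found together in 32 of 140 cells at E13.5 (22.9%, 16.2 to 30.7) and in 0 cells at P90, which allows a share of up to 0.923%. Without En2, all 6 others were found together in 32.1% at E13.5 and 1.54% at P90 (5 cells), a difference of −30.6 points (−38.8 to −23.2).

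**Figure D2:**
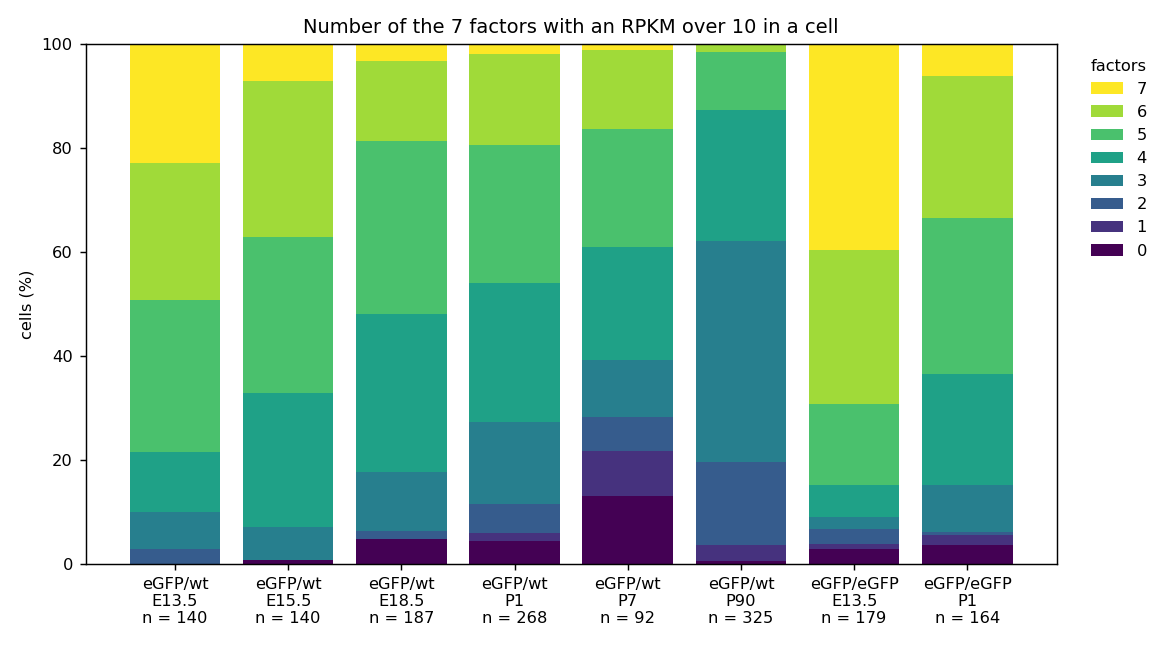
Number of the 7 factors with an RPKM over 10 in a cell, as a percentage of the kept cells of each stage and genotype (stacked bars that add to 100%; n is the number of cells). Cells with all 7 make up 22.9% at heterozygous E13.5, 39.7% at homozygous E13.5 and none at P90, where 3 is the most frequent number (42.5% of cells).

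The core combination of Lmx1a, Foxa2 and Nr4a2, factors often used together to recognise mDA neurons, was present in 77.9% of E13.5 cells (70.1 to 84.4). The share was 67.9%, 58.3%, 53.7% and 44.6% at the next 4 stages and 39.4% among P90 cells (34.04 to 44.9). The P90 share was lower than that at E13.5 by a difference of −38.5 points (−46.4 to −29.2). No step between neighbouring stages had an interval that left out 0. Among the 4 adult plates the share ran from 34.04% to 45.7%, each below the E13.5 share. The size of the difference depended on the threshold, at −26.0 points for an RPKM over 1 and −18.5 points for 1 read or more. With each cell thinned to 100000 reads it was −39.3 points at 10 RPKM, while the median number of reads had been 2357900 at E13.5 and 1764070 at P90.

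The most frequent combination also changed. At E13.5 it was all 7 factors (32 cells), and at E15.5 all except Foxa1 and En2 (17 of 140). E18.5 cells most often had all except Lmx1b and En2 (34 cells), and P1 cells all except En2 (33 cells). At P7 it was none of the 7 (12 of 92, 13.0%), ahead of all except En2 (11 cells). At P90 the most frequent set was Lmx1a, Foxa2 and Nr4a2 alone (48 cells), followed by Foxa2, Nr4a2 and En1 (28 cells). This order describes the adult cells sampled, of which 52.3% had over 150 RPKM of Nxph4 and 21.8% over 150 RPKM of Slc6a3. In all, 34 combinations were seen at E13.5, 51 at P1 and 42 at P90, and no set held more than 22.9% of the heterozygous cells of any stage.

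Cells in which none of the 7 factors passed 10 RPKM numbered 0, 1, 9, 12, 12 and 2 at the 6 heterozygous stages and 5 and 6 in the homozygous groups. Th was over 10 RPKM in 17.02% of these 47 cells and in 72.8% of the other cells, and the neuronal gene Tubb3 in 85.1% and 99.8%. At P7, where they made up 13.0% of the cells, the share was 8.96% once cells with markers of other cell types were left out. Of the 6 such cells in homozygous P1, the microglial genes Cx3cr1, Csf1r, C1qa and Tyrobp were each over 10 RPKM in 5, and 0 cells without a factor remained there after the same filter. In other groups most of them stayed: 8 of 9 at E18.5, 9 of 12 in heterozygous P1 and 4 of 5 in homozygous E13.5. All 9 E18.5 cells had Tubb3, Snap25 and Elavl4 over 10 RPKM, 8 had Pitx3 and 0 had Th.

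En1 and Lmx1a parted along known subgroups of these neurons. Cells with over 150 RPKM of Slc6a3, the dopamine transporter gene, were set beside cells with over 150 RPKM of Nxph4, a neurexophilin gene, with cells over it for both left out. En1 was expressed more often in the Slc6a3 cells at all 6 heterozygous stages, and Lmx1a less often. These cuts are ranges along the level of 1 gene and not cell types; at P90, 15 cells had a Slc6a3 level and 76 an Nxph4 level within a factor of 2 of the cut.

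En1 was over 10 RPKM in 63 of 69 Slc6a3 cells (91.3%) and 59 Nxph4 cells (35.1%) at P90, a difference of 56.2 points (44.5 to 64.4), and its mean levels were 46.9 and 8.87 RPKM. At E13.5 the shares were 100% of 25 and 76.3% of 38 cells (23.7 points, 6.61 to 39.2). At the 4 stages between, the differences ran from 23.5 points at E15.5 to 65.5 points at E18.5, and each interval left out 0. In homozygous P1 cells En1 was over 10 RPKM in all 16 Slc6a3 cells and 26.9% of the 26 Nxph4 cells.

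Lmx1a was over 10 RPKM in 17 of 69 Slc6a3 cells (24.6%) and 74.4% of Nxph4 cells at P90, a difference of −49.8 points (−60.3 to −36.4). At E13.5 it was 84% and 100% (−16 points, −34.7 to −2.72), and the difference was negative at all 6 stages, with an interval that left out 0 at all except P7 (−26.4 points, −45.5 to 5.65). The homozygous P1 cells did not have this order, with Lmx1a in 100% of Slc6a3 and 84.6% of Nxph4 cells, although the interval of that difference (−6.07 to 33.5) holds 0. The core combination at P90, which holds Lmx1a, was present in 13.0% of Slc6a3 cells and 55.4% of Nxph4 cells.

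Foxa2 was also less frequent in Slc6a3 cells at P90 (57.97% and 75%, difference −17.03 points, −30.2 to −4.02), and Foxa1 and Lmx1b were not told apart there by counting error. Lmx1b at E15.5 was more frequent in Slc6a3 cells (76.3% of 38) than in Nxph4 cells (26.1% of 23), and at P1 46.3% and 26.8%. Nr4a2 was over 10 RPKM in nearly all cells of both kinds, but its mean level was higher in Nxph4 cells at each heterozygous stage, for example 625 against 300.6 RPKM at P1 and 132.2 against 122.9 RPKM at P90.

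**Figure D3:**
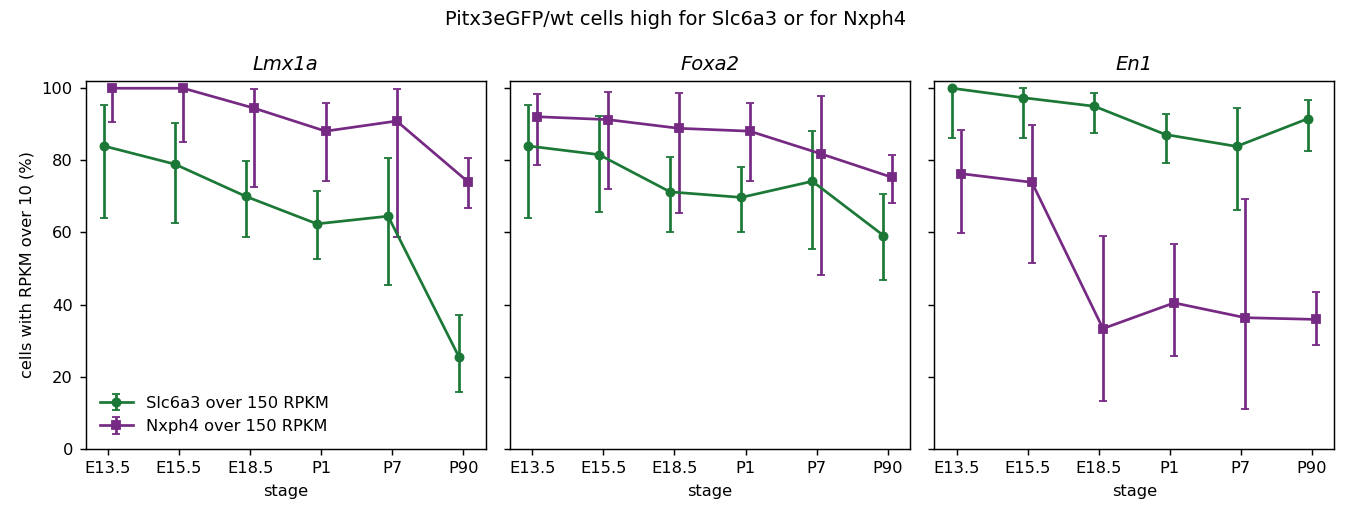
Share of Pitx3eGFP/wt cells (%, vertical axis) with an RPKM over 10 for Lmx1a, Foxa2 and En1, by stage, among cells with Slc6a3 (circles) or Nxph4 (squares) over 150 RPKM; the few cells over the cut for both count in both, and bars are exact 95% intervals. The Slc6a3 line lies above the Nxph4 line for En1 and below it for Lmx1a at each stage.

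The same order was seen with cuts on Aldh1a1 and Th. These cuts can pick the same cells as the cut on Slc6a3, and the overlap was not counted, so they are not separate evidence. Values for the 81 adult cells with over 150 RPKM of Gad2, another subgroup gene, are not given. At P90 Lmx1a was expressed in 20.97% of the 62 cells with over 150 RPKM of Aldh1a1, a retinaldehyde dehydrogenase gene of ventral tier neurons, and in 66.2% of the others, while En1 was expressed in 85.5% and 47.5%. In adult cells with over 150 RPKM of Th, the tyrosine hydroxylase gene, En1 was in 71.3% and Lmx1a in 46.1%, against 34.7% and 71.4% of the cells at or below that level. At E13.5 the Th groups differed for En1 (97.8% and 64%) and not, within counting error, for Lmx1a (91.1% and 92%). Adult cells with En1 had Lmx1a less often (47.8%) than cells without En1 (69.4%), a difference of −21.6 points (−31.6 to −10.9), where at E13.5 the shares were 91.7% and 90%.

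Cells with over 150 RPKM of Vip, which encodes vasoactive intestinal peptide, had Nr4a2 at a low level together with frequent En1. Their mean Nr4a2 level was 138.6 RPKM against 344.4 RPKM in the others at E18.5 (18 cells), 88.1 against 377 RPKM at P1 (24 cells), 69.3 against 308.9 RPKM at P7 (16 cells) and 48.4 against 133.1 RPKM at P90 (10 cells). En1 was over 10 RPKM in 100%, 100%, 93.8% and 90% of those Vip cells. At P90 the share with Nr4a2 over 10 RPKM was 60% of Vip cells and 95.9% of the others, a difference of −35.9 points (−64.7 to −12.5) that rests on 10 cells.

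Of the 7 factors, Foxa1 had the largest difference in share between the genotypes at E13.5. It was expressed in 81.01% of homozygous and 59.3% of heterozygous cells, a difference of 21.7 points (11.7 to 31.4), and the mean level was 2.03 times higher, 113.3 against 55.8 RPKM. Single homozygous cells ran from 0 through a median of 69.2 to 626 RPKM and heterozygous cells from 0 through 21.8 to 370 RPKM. By plate the homozygous share was 86.2%, 68.2% and 78.6%, each above the heterozygous value. Counted as 1 read or more in place of 10 RPKM, however, the share did not differ beyond counting error (−0.587 points, −5.67 to 4.98). Foxa1 was higher in homozygotes both among cells with Th over 150 RPKM (83.1% and 64.4%) and among the others (79.4% and 50%).

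In mean CPM, Foxa1 was 0.94 higher on the log2 scale in E13.5 homozygotes, just under the 2-fold limit, and En2 (1.01) was the only factor of the 7 to pass it. Of the 9466 entries tested, 2.78% were at least 2-fold higher and 2.75% lower. Lmx1b was found in 74.9% of homozygous and 61.4% of heterozygous cells (13.4 points, 3.17 to 23.5). Nr4a2 was less frequent, in 93.3% and 98.6% (−5.28 points, −10.0 to −0.674), and its mean level was 508 and 751 RPKM. Foxa2 and En1 each had a mean level about 0.645 times that of heterozygotes (93.1 and 144.4 RPKM for Foxa2, 36.3 and 56.3 RPKM for En1), with differences in share of −7.50 points (−15.7 to 1.16) and −3.59 points (−11.5 to 4.76).

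The genotypes at E13.5 also differed in which Foxa factor a cell had alone. Cells with Foxa1 but not Foxa2 made up 15.1% of homozygous and 5% of heterozygous cells, and cells with Foxa2 but not Foxa1 12.3% and 31.4%. Cells with either were 93.3% and 90.7%, which do not differ beyond counting error. The core combination was present in 72.6% and 77.9%, a difference of −5.23 points (−14.5 to 4.43), and all 7 factors in 39.7% and 22.9%. Without En2, all 6 others were found together in 45.3% and 32.1% (13.1 points, 2.31 to 23.4).

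The E13.5 groups also differed in spike-in RNA, which all homozygous and no heterozygous cells had, so that genotype, spike-in and plate cannot be told apart. They differed in depth too, with medians of 753256 and 2357900 reads. Among the 83 homozygous and the heterozygous cells between 888998 and 3844520 reads, the difference for Foxa1 was 20.5 points (7.91 to 31.6), for Lmx1b 11.1 points (−1.84 to 23.002) and for Nr4a2 −3.38 points (−10.4 to 1.30). Gata3, a gene of other ventral neurons, was over 10 RPKM in 17.3% of homozygous and 0.714% of heterozygous E13.5 cells, and it was the single marker of the serotonin neuron list with enough reads to compare. The serotonin marker Tph2 was at 0 in both groups, Fev was at 0 in heterozygotes, and the summed list had a median of 10.6 CPM in homozygous (1.01 to 3245) and 1.21 in heterozygous cells (0 to 331.98). Of the subthalamic and hypothalamic list 2 of 3 genes tested (Lhx1 and Lhx5) were at least 2-fold higher in homozygotes. Of the immediate early genes 3 of 7 were (Fos, Jun and Egr1), beside 2.78% of all entries. The part of such cells or of handling in the Foxa1 difference was not tested.

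**Figure D4:**
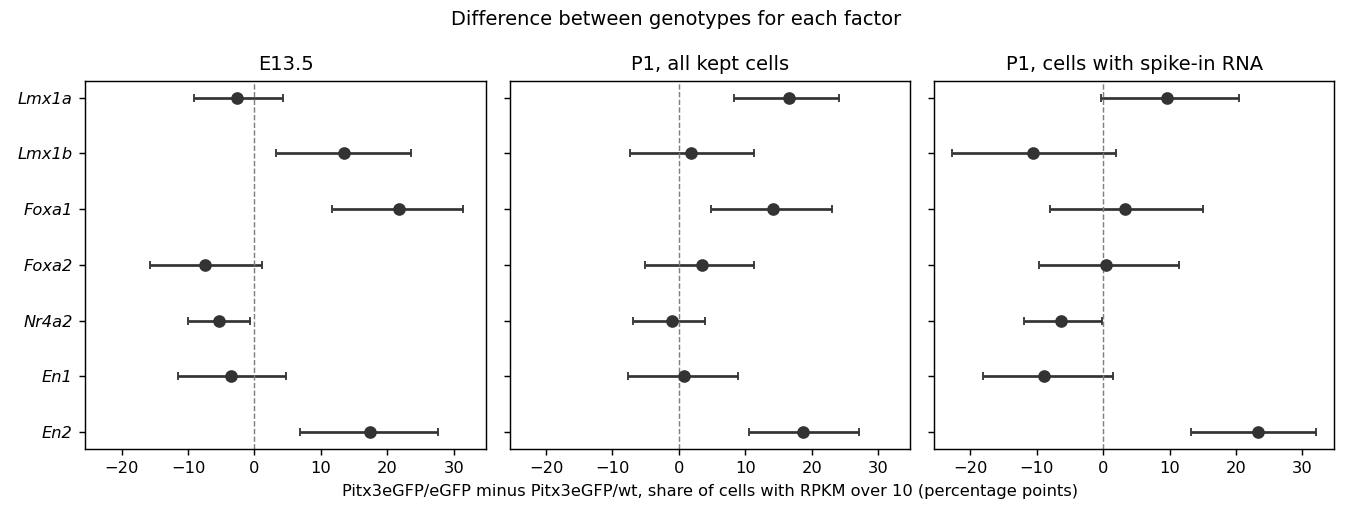
Difference in the share of cells with an RPKM over 10, Pitx3eGFP/eGFP minus Pitx3eGFP/wt (horizontal axis, percentage points; points with Newcombe 95% intervals for the counting of cells; dashed line at 0), at E13.5, at P1 with all kept cells, and at P1 with spike-in cells only. Foxa1 is 21.7 points higher in homozygotes at E13.5, while at P1 its difference is 14.2 points in all cells and 3.26 points in cells with spike-in RNA.

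At P1 the difference between homozygotes and heterozygotes was at a lower value for 6 of the 7 factors (all except En2) when cells with spike-in RNA alone were compared. Over all kept cells, Lmx1a was found in 84.1% of homozygous and 67.5% of heterozygous cells (16.6 points, 8.31 to 24.2), Foxa1 in 71.3% and 57.1% (14.2 points, 4.90 to 22.99) and the core combination in 68.3% and 53.7% (14.6 points, 5.06 to 23.5). Cells with over 150 RPKM of Slc6a3, in which Lmx1a and the core combination were less frequent than in Nxph4 cells among heterozygotes, made up 9.76% of homozygous and 40.7% of heterozygous P1 cells, and 0.559% and 17.9% at E13.5. Since Slc6a3 itself was lower in homozygotes, fewer cells of that kind and less Slc6a3 per cell cannot be told apart by this cut. Their part in the Lmx1a and core differences was not tested. From its own clustering the study reports few homozygous cells in its Aldh1a1 and Slc6a3 subtypes, while its remaining subgroups appeared unaffected. Only 94 of the heterozygous cells had spike-in RNA. Within that genotype the cells without it had shares lower beyond counting error for 4 factors, for example Lmx1b (29.9% and 48.9%) and Foxa1 (51.1% and 68.1%). No factor had a higher share beyond that error, and the same count over all entries was not made. With spike-in cells alone, the differences were 9.68 points for Lmx1a (−0.335 to 20.5), 3.26 points for Foxa1 (−8.02 to 15.1), −6.41 points for Nr4a2 (−11.9 to −0.120), −10.5 points for Lmx1b (−22.7 to 1.95) and 8.72 points for the core combination (−3.25 to 20.8). Over all kept cells Nr4a2 had differed by −1.07 points (−6.95 to 4.001) and Lmx1b by 1.85 points (−7.39 to 11.3), so Nr4a2 moved further from 0 and Lmx1b turned its sign. The En1 difference turned its sign too. En1 was in 76.2% of homozygous cells, against 75.4% of all heterozygous cells and 85.1% of those with spike-in RNA. The intervals for spike-in cells rest on fewer heterozygous cells and are wider. The plates of the genotypes remained separate, so genotype and plate cannot be told apart.

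The core difference over all P1 cells was 24.4 points (12.1 to 35.1) among cells with Th over 150 RPKM (75.3% and 50.9%) and 0.860 points (−13.9 to 15.4) among the others (60% and 59.1%).

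The homozygous P1 cells came from 2 plates with 75.3% and 62.1% of cells in the core combination. Without the plate of 77 cells the difference of the core combination was 8.34 points (−3.70 to 19.6), and without the plate of 87 cells it was 21.6 points. None of the 7 factors passed the 2-fold limit at P1 in either direction, where 2.92% of entries were higher and 1.99% lower in homozygotes. In homozygous P1 cells 3 of 4 astrocyte and 4 of 5 microglial markers tested were at least 2-fold higher and 3 of 3 vascular markers lower, with a median of 1.98 (astrocyte, 0 to 7007), 0 (microglia, 0 to 33104) and 0 (vascular, 0 to 618) summed CPM. The heterozygous medians were 0.174 (0 to 3044), 0 (0 to 27414) and 0 (0 to 15603). Without cells that had at least 3 markers of a single other list, the core difference at P1 was 17.4 points (7.48 to 26.5).

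En2 was also counted over 10 RPKM in more homozygous cells, 73.2% against 55.7% at E13.5 (17.5 points, 6.91 to 27.7) and 32.9% against 14.2% at P1 (18.7 points, 10.5 to 27.1). The sign turned at lower thresholds, to −2.45 points at E13.5 for an RPKM over 1, and for 1 read or more to −0.990 points at E13.5 and −1.78 points at P1. Its values, however, followed those of the eGFP reporter. The correlation of En2 with eGFP across cells, on log2(RPKM + 1), was 0.894, 0.772, 0.770, 0.662, 0.728 and 0.322 from heterozygous E13.5 to P90, and 0.884 and 0.836 in homozygotes. Over the same 8 groups the correlations of the other 6 factors with eGFP ran from −0.090 to 0.484, and those of En2 with the number of reads per cell from −0.179 to 0.268. Cells of a group share plates and depth, and genes are read from the same libraries, so these are descriptions of the cells of each group.

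Among 8364 entries that were frequent enough at every heterozygous stage, the entry most like En2 was eGFP (mean correlation over the 6 stages 0.69), followed by Pitx3 (0.48), in whose locus the reporter stands, and Elovl3 (0.34), which shares 10 exonic bases with Pitx3 on the opposite strand. The mean level of eGFP was 323.02 RPKM in heterozygous and 726 RPKM in homozygous E13.5 cells, and 16.3 RPKM at P90. Set against it, En2 stood at 4.45, 4.72, 3.71, 4.53 and 5.18 RPKM per 100 RPKM of eGFP from E13.5 to P7, at 8.60 at P90, and at 4.15 and 4.23 in homozygotes. The ratio thus lay between 3.71 and 5.18 over 7 groups whose mean eGFP level ran from 102.1 to 726 RPKM, whereas Foxa1 per 100 RPKM of eGFP ran from 15.6 to 42.5 over the same groups and was 76.7 at P90. Lmx1b per 100 RPKM of eGFP was from 9.35 to 11.8 in the heterozygous groups up to P7, no wider than En2, but 5.97 and 5.21 in homozygotes and 29.7 at P90, so a narrow ratio over these heterozygous stages was not particular to En2.

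**Figure D5:**
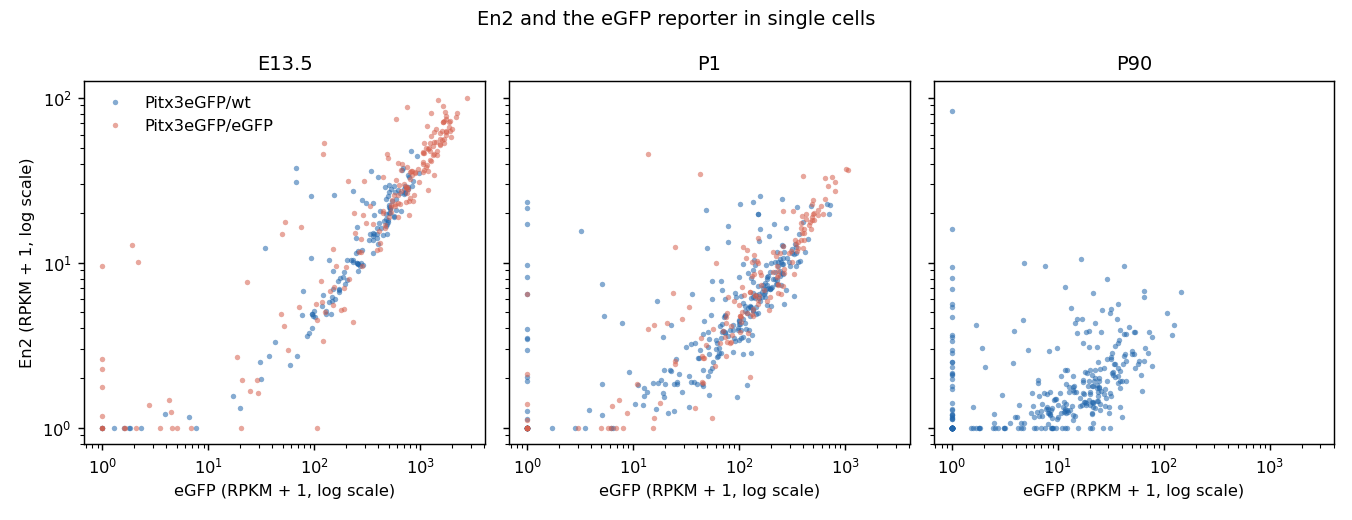
En2 level against eGFP level in single kept cells at E13.5, P1 and P90 (both axes RPKM + 1 on a log scale; each point is a cell, blue Pitx3eGFP/wt, red Pitx3eGFP/eGFP). At E13.5 and P1 the cells of both genotypes fall along a common band (correlations of 0.894 and 0.884 at E13.5), and at P90, where eGFP is low, the relation is looser (0.322).

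The En2 levels of the genotypes were then set side by side at a like level of eGFP. In E13.5 cells with 300 to 600 RPKM of eGFP the mean En2 level was 23.6 RPKM in 24 homozygous and 19.3 RPKM in 47 heterozygous cells, and every one of these cells was over 10 RPKM. From 600 to 1200 RPKM of eGFP it was 34.5 and 30.4 RPKM, and from 100 to 300 RPKM 11.98 and 8.81 RPKM, with En2 over 10 RPKM in 37.9% and 19.05% of these cells. From 10 to 100 RPKM of eGFP the order was reversed, at 5.08 RPKM in 14 homozygous and 7.09 RPKM in 22 heterozygous cells. At P1 the order also varied, with 4.56 and 2.77 RPKM at 10 to 100 RPKM of eGFP. It was 6.97 and 7.38 RPKM at 100 to 300, and 16.1 and 12.1 RPKM at 300 to 600. Of the E13.5 cells with at most 10 RPKM of eGFP, En2 was over 10 RPKM in 0 of 10 heterozygous and 1 of 20 homozygous cells, with means of 0.0374 and 1.72 RPKM. The same count was 1 of 8, 1 of 16, 4 of 46 and 1 of 20 in heterozygous cells from E15.5 to P7, 2 cells at P90 and 0 of 24 in homozygous P1 cells. Among cells with eGFP at 0 RPKM, En2 was over 10 RPKM in 3 of 32 cells at P1 (16.2, 20.5 and 22.3 RPKM), 1 of 17 at P7 (40.9 RPKM) and 2 of 78 at P90 (15.02 and 82.3 RPKM), and in 0 cells of the other 5 groups. The adult pair were the same 2 cells that passed the threshold at P90, so the relation to eGFP did not hold for every cell with En2. The mean of Foxa1 at E13.5 was higher in homozygous cells at each compared level of eGFP over 10 RPKM. It was 68.7 RPKM in homozygous and 35.4 RPKM in heterozygous cells at 10 to 100 RPKM of eGFP, and 65.4 and 40.8 RPKM at 100 to 300. At 300 to 600 it was 106.8 and 64.5 RPKM, and at 600 to 1200 119.3 and 78.5 RPKM. Only at 10 RPKM or lower was the order reversed, with 17.9 RPKM in 20 homozygous and 78.9 RPKM in 10 heterozygous cells. Foxa1 was over 10 RPKM in 50% of both there. The tables hold reads per gene and not their positions, so in cells that had eGFP, reads from the En2 gene itself and any reads of the reporter allele that were assigned to En2 cannot be told apart.

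The genes most like the other factors, over the same 8364 entries and 1152 heterozygous cells, differed in how close they came. En1 was closest to Th (mean of 6 stage correlations 0.60, from 0.52 to 0.69), the cholecystokinin gene Cck (0.55) and Dlk1 (0.52). Nr4a2 was closest to Scg2 (0.44), which encodes a secretogranin. Lmx1a (Epb41l3 and Nxph4, 0.29 and 0.28), Lmx1b (C130021I20Rik, 0.27), Foxa1 (C130021I20Rik, 0.23) and Foxa2 (Nr4a2, 0.26) had no entry above 0.29. Between pairs of the 7 factors the mean correlations ran from −0.01 (Lmx1a and En1) to 0.26 (Lmx1a and Nr4a2, and Foxa2 and Nr4a2). In single stages the highest values were those of Lmx1a with Foxa1 (0.56), Foxa2 with Nr4a2 (0.54) and Foxa2 with En1 (0.53) at P7, where 25 of 92 cells had markers of other cell types and 12 had none of the 7 factors, while at P90 the same pairs were at 0.05, 0.06 and −0.00155.

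Other genes of the same developmental program differed in direction between P90 and E13.5. Of 7 postmitotic partner factors tested at P90 against E13.5, 5 were at least 2-fold lower, among them Pitx3 itself (416 and 17.9 RPKM) and Otx2 (46.7 and 20.1 RPKM), and 1, Nr4a1, was higher (0.580 and 49.7 RPKM). Of the dopamine targets, 4 of 10 were higher, among them Slc6a3 (117.3 and 430.4 RPKM), and 2 of 10 lower, beside 20.3% and 24.3% of all entries, and Th was at 1326 and 1638 RPKM. Both progenitor and floor plate genes tested, Shh and Wnt5a, were lower, as was Cnpy1, the single gene tested of the isthmus list (462 and 33.3 RPKM). In E13.5 homozygotes 5 of 9 dopamine targets were at least 2-fold lower than in heterozygotes and none higher, beside 2.75% and 2.78% of all entries. Among 5 partner factors Otx2 was higher (117.97 and 46.7 RPKM) and Pitx3 lower. At P1 the count was 4 of 10 dopamine targets lower and none higher, beside 1.99% and 2.92% of all entries. Of the partners, 1 of 5 passed each way (Nr4a1 higher, Pitx3 lower).

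Nr4a2 belongs to a family whose members Nr4a1 and Nr4a3 are immediate early genes, which respond within minutes to stimulation of a cell. Of the 10 immediate early genes tested, 9 were at least 2-fold higher at P90 than at E13.5, beside 20.3% of all entries. Fos was over 10 RPKM in 74.2% of P90 and 34.3% of E13.5 cells. At E18.5 against E13.5, however, 6 of 7 tested, Fos among them, were lower and 1 higher, beside 8.31% and 13.6% of all entries. Adult cells with Fos over 10 RPKM had Nr4a2 more often (97.9%) than those without (85.7% of 84), with medians of 122.5 and 93.8 RPKM, and they had Nr4a3 in 27.4% and 2.38%. At P1 the order was the other way round, with Nr4a2 in 75.9% of 29 cells with Fos and 94.6% of those without. The adult cells were dissociated with papain and the younger ones with other kits, and the part of dissociation in the level of Nr4a2 was not tested.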

How the data were processed

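Single GFP-sorted ventral midbrain cells were sequenced with Smart-seq2 at 43-base reads, and every deposited table holds 1 cell. The authors aligned reads with STAR to mm10 extended by eGFP and ERCC sequences, kept uniquely mapping reads, and counted them per gene of Ensembl release 69 with rpkmforgenes. The deposited tables give raw read counts that are not normalized. The deposited RPKM values were scaled by the authors to gene model length and mapped reads. Every column of values was used (0 left out).

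Cells needed over 100000 reads and detection of 15% of genes or more, or 3.4% for adult cells, and 1649 of 1699 passed. The 319 identifiers that occurred more than once were kept as separate entries, and entries without a symbol held 0.211% of reads. Oligodendrocyte-like cells, 154 in 6 of 78 clusters with at least 3 of the oligodendrocyte lineage markers, were then left out. Clusters were rebuilt from 453 variable genes, 50 principal components, 5 nearest neighbours and 10 infomap trials (seed 1) and can differ from those of the study. Doublets were not called. This left 140, 140, 187, 268, 92 and 325 Pitx3eGFP/wt cells from E13.5 to P90, and 179 and 164 Pitx3eGFP/eGFP cells at E13.5 and P1.

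A gene counted as expressed at an RPKM over 10. Shares have exact Clopper-Pearson and differences Newcombe 95% intervals, and a share of 0 is given with the limit that 3 counts allow. Reads were PCR copies without molecular identifiers, so the intervals cover counting error only. With 1 sample per stage and genotype, no test was made. For the background, group means in CPM were compared for entries whose mean reached 10 in one of the groups, and a fold of at least 2 was counted. Correlations used log2(RPKM + 1).

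The 7 factors and all gene lists were chosen with earlier results of these data known. Genes named are the 7 factors, the gene lists of the pathway, cell type markers, the 3 entries most like each factor, Pitx3 and eGFP, and a few items that this rule covers are not reported here. Alternatives changed the RPKM threshold, depth (cells thinned to 100000 reads), the filters on cells, the removal of glial cells, the plates and the spike-in cells. Leaving out cells with markers of other cell types, the spike-in comparison of single factors at P1 and combinations without En2 were added after the data were seen. The steps were tested on simulated data. Python 3.11.15, numpy 2.4.6, pandas 2.3.3, scipy 1.17.1, scikit-learn 1.9.0, igraph 0.11.9 and matplotlib 3.10.9 were used.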

Additional observations from a re-analysis of the deposited data

Results flagged for a closer look

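The oligodendrocyte-like cells left out of all comparisons held reads of some of the factors. Nr4a2 was over 10 RPKM in 13.6% of them, En1 in 9.09%, Foxa2 in 7.79% and Foxa1 in 5.19%, and Lmx1a in 3.90%, En2 in 1.95% and Lmx1b in 0.649%. They are listed because these cells lie outside all comparisons. A count of 0 would allow a share of up to 1.95% in that number of cells, and doublets were not called, so the values do not tell whether the glial cells themselves expressed a factor. None of the 7 factors passed the threshold in 78.6% of these cells. The reporter eGFP was over 10 RPKM in 26.6% of them and Pitx3 in 11.7%.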

How the results depend on the processing

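Of the alternatives to the 6 differences in combinations, 70 moved the value by less than its counting interval. The threshold on RPKM moved 6 others and reversed 1. The difference of the core combination between P90 and E13.5 was −26.0 points at an RPKM over 1, −56.8 at an RPKM over 50 and −18.5 at 1 read or more. That of En1 with En2 was −58.8, 0.308 and −21.1 points at the same thresholds, the middle value being a reversal because no E13.5 cell had both over 50 RPKM. That of Lmx1a with Lmx1b was −20.4 points at an RPKM over 50. Of the single factors, most alternatives moved the value by less than its interval, while 22 moved it further and 5 reversed it. The reversed values were the genotype difference of Foxa1 at E13.5 with 1 read or more (−0.587 points), the difference of En2 between P90 and E13.5 at an RPKM over 50 (0.308 points), and the genotype differences of En2 at E13.5 at an RPKM over 1 (−2.45 points) and with 1 read or more (−0.990 points) and at P1 with 1 read or more (−1.78 points). The cause was not tested.

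Leaving out 1 named plate at a time, the core difference ran from −39.5 to −36.3 points for P90 against E13.5, from −8.13 to −2.86 for the genotypes at E13.5 and from 8.34 to 21.6 for the genotypes at P1. The other pairs ran from −50.7 to −50.3 (En1 with En2), from −32.8 to −26.3 (Foxa1 with Foxa2) and from −52.5 to −51.9 points (Lmx1a with Lmx1b). The core difference at P1 in spike-in cells alone, 8.72 points, had an interval that holds 0 (−3.25 to 20.8). With entries tested from a mean of 1 CPM in place of 10, 25.4% of entries were higher and 24.5% lower at P90 than at E13.5. No paired analysis was possible because no test was made and the labels name no animals, only a running number for each cell. Shares at a fixed RPKM depend on depth where a threshold is near a few reads, and counting intervals do not cover differences between animals.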
